A study of Danio rerio with 4 samples.

Results

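The miRNAs miR-216a, miR-216b and miR-217 were followed across small RNA libraries of whole zebrafish larvae. They were chosen by name, as every entry of the deposited table named miR-216 or miR-217 with any letter or arm, which gave 3 of the 245 zebrafish miRNAs listed (dre-miR-216a, dre-miR-216b and dre-miR-217). No arm of the hairpin was given for any of them. Wild-type Tuebingen larvae were collected at 6 dpf, and 1 library was sequenced per condition. The conditions were a blank control, a DMSO vehicle control, a low concentration of BDE47 (5 μg/L) and a high one (500 μg/L). BDE47 is a tetrabrominated diphenyl ether once used as a flame retardant, and both BDE47 groups also received DMSO. The blank control is labelled as wild type only, and whether it held DMSO is not stated. Exposure began at the gastrula stage and lasted until collection, and each library was made from 1 pool of whole larvae. No condition had a second library, so no difference had a replicate check, and the values describe single libraries.

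miRNAs are short RNAs that guide Argonaute proteins to complementary sites in mRNAs, mostly through bases near their 5′ end, and so lower the output of those mRNAs. In vertebrates miR-216 and miR-217 are known for the acinar cells of the exocrine pancreas, which make and secrete digestive enzymes, and their expression in zebrafish larvae has been described there. A role outside the pancreas is also known, since miR-216a acts on snx5 in Notch signalling of the zebrafish eye. The genes of the 3 miRNAs lie side by side on 1 chromosome in the RefSeq annotation of the GRCz12tu assembly. Their order by coordinate, whatever the strand, is miR-217, miR-216a and miR-216b, with 0 other annotated genes lying wholly between them. The tissue of origin could not be checked in these data, because whole larvae were sequenced and pancreatic mRNAs were not analysed here. In whole larvae, fewer cells of a type and less RNA per cell cannot be told apart.

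The values are read counts that had been divided by 1 size factor per library (0.933 to 1.09), called normalized counts here. They were whole multiples of 1 number per library, so the reads could be read back, and the listed miRNAs held between 8858169 and 10357704 reads in a library. Intervals are exact Clopper-Pearson 95% intervals from those reads. PCR copies are no independent molecules, so the intervals hold the error of counting alone. For each pair of libraries, the log2 ratio was taken after 1 had been added to both normalized counts, and it is set beside those of the 234 miRNAs whose mean over the 4 libraries reached 10 normalized counts. All 3 miRNAs were among these.

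miR-216b was the abundant member, and it varied little across the 4 libraries. It had 16667 normalized counts in the blank, 17598 in the vehicle control, 16844 at low BDE47 and 15160 at high BDE47. These came from 15543, 19204, 17244 and 14364 reads. miR-216b thus stood between rank 50 and rank 53 of the 245 miRNAs in every library, at 0.155% to 0.189% of the listed reads. The highest library was 1.16 times the lowest, a narrower range than that of 185 of the 234 miRNAs. The median range over all 234 was 1.29 times.

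miR-217, whose gene comes first of the group by coordinate, was far less abundant. It had 1548 normalized counts in the blank, 1651 in the vehicle control, 1472 at low BDE47 and 1369 at high BDE47, from 1444, 1802, 1507 and 1297 reads. Its ranks ran from 150 to 156 of 245, and its highest library was 1.21 times its lowest, with a wider range for 158 of the 234 miRNAs. The order of its libraries from low to high was high BDE47, low BDE47, blank control and vehicle control, and neighbours in this order had overlapping counting intervals.

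miR-216a was the member that varied. It had 1474 normalized counts in the blank (95% interval 1398 to 1554), 2231 in the vehicle control (2144 to 2322), 1264 at low BDE47 (1196 to 1335) and 1008 at high BDE47 (945 to 1074). The reads behind these were 1375, 2435, 1294 and 955. None of the 4 intervals overlapped, with the vehicle control highest and high BDE47 lowest, and the blank control lay between the vehicle control and both BDE47 libraries. Its rank went from 138 of 245 in the vehicle control to 162 at high BDE47, and its highest library was 2.21 times its lowest. 15 of the 234 miRNAs had a wider range.

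**Figure D1:**
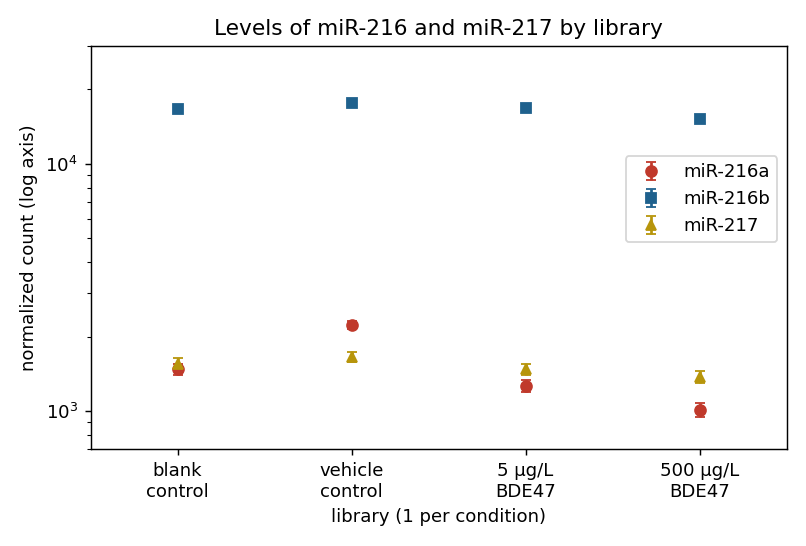
Normalized counts of miR-216a (circles), miR-216b (squares) and miR-217 (triangles) on a log axis in each of the 4 libraries, with exact 95% counting intervals. miR-216b stays between 15160 and 17598 and miR-217 between 1369 and 1651, while miR-216a runs from 1008 at high BDE47 to 2231 in the vehicle control.

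All 3 miRNAs were highest in the vehicle control and lowest at high BDE47. That order was common in the table. It was shared by 53 of the 234 miRNAs (22.6%), while 84 (35.9%) were highest in the vehicle control and 76 (32.5%) were lowest at high BDE47.

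The first comparison asked how the high BDE47 library differed from the vehicle control, the control library of the study. miR-216a was at 0.452 of the vehicle control (95% counting interval 0.419 to 0.487), a log2 ratio of -1.15. miR-216b was at 0.861 (0.843 to 0.880) and miR-217 at 0.829 (0.771 to 0.891), with log2 ratios of -0.22 and -0.27. Thus 1 of the 3 was more than 2-fold lower and 0 were more than 2-fold higher, where 7.69% of the 234 miRNAs were lower and 1.28% higher by that much. The call rests on miR-216a alone. 12 miRNAs had a lower log2 ratio than miR-216a, 75 than miR-216b and 72 than miR-217. The median log2 ratio of the 3 was -0.27, against 0.02 over all 234. The ratio of miR-216a depended on the control library. Its log2 ratio was -0.55 against the blank control and -0.88 against the mean of both controls, neither of which passed 2-fold.

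At low BDE47, miR-216a was at 0.566 of the vehicle control (0.529 to 0.606), a log2 ratio of -0.82. miR-217 was at 0.891 (0.832 to 0.955) and miR-216b at 0.957 (0.938 to 0.977), log2 ratios of -0.17 and -0.06. None of the 3 passed 2-fold, where 2.99% of the 234 miRNAs did, all of them lower. 15 miRNAs had a lower log2 ratio than miR-216a, while 134 lay farther from 0 than miR-217 and 201 than miR-216b. The median of the 3 was -0.17, against 0.02 over all 234. Scaling each library to its total of listed reads moved the median of all miRNAs here by -0.12, and the log2 ratios were then -0.94 for miR-216a, -0.29 for miR-217 and -0.18 for miR-216b.

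The control libraries, which received no BDE47, also differed at miR-216a. The blank control was at 0.661 of the vehicle control for miR-216a (0.618 to 0.706), a log2 ratio of -0.60, with 22 miRNAs lower. For miR-216b it was at 0.947 (0.927 to 0.967) and for miR-217 at 0.938 (0.874 to 1.01), and the interval of miR-217 reached 1. None of the 3 passed 2-fold, where 1.28% of the 234 miRNAs did. Their median log2 ratio was -0.09, against -0.03 over all 234. The 3 comparisons named so far share the vehicle control.

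Between the BDE47 libraries, all 3 members were lower at high BDE47 than at low BDE47, as were 51.3% of the 234 miRNAs. The ratio was 0.797 for miR-216a (0.733 to 0.868), 0.900 for miR-216b (0.880 to 0.920) and 0.930 for miR-217 (0.863 to 1.002), so the interval of miR-217 reached 1. None passed 2-fold, where 1.71% of the 234 miRNAs did. Their median log2 ratio was -0.15, against -0.01 over all 234.

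Against the blank control, the high BDE47 library was at 0.684 for miR-216a (0.629 to 0.743), at 0.910 for miR-216b (0.889 to 0.931) and at 0.884 for miR-217 (0.820 to 0.954). None passed 2-fold, where 0.855% of the 234 miRNAs did. 22 miRNAs had a lower log2 ratio than miR-216a there. The low BDE47 library was at 0.857 of the blank control for miR-216a (0.794 to 0.926) and at 0.951 for miR-217 (0.884 to 1.02). miR-216b was at 1.01 (0.989 to 1.03), a log2 ratio of 0.02 that became -0.08 with scaling to the total of listed reads. For miR-216b and miR-217 these intervals reached 1, so no difference was detectable on the scale of the size factors, whereas as shares of the listed reads both were lower at low BDE47. 0 of the 234 miRNAs (0.0%) passed 2-fold.

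**Figure D2:**
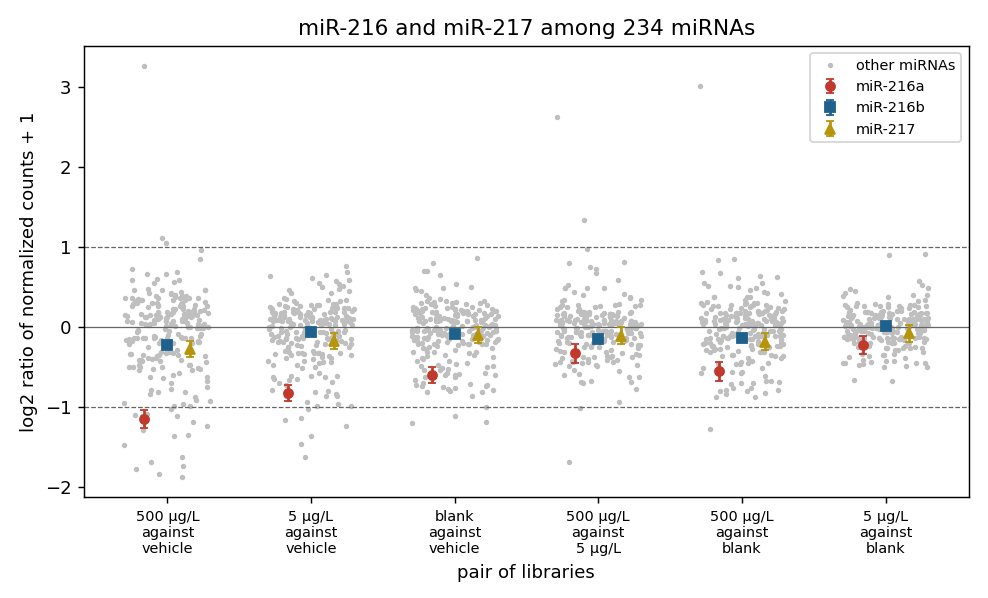
Log2 ratios of normalized counts plus 1 for each of the 6 pairs of libraries, with 1 gray point per other miRNA and coloured symbols with 95% counting intervals for the 3 members. The dashed lines mark 2-fold. miR-216a lies at -1.15, -0.82 and -0.60 in the 3 pairs with the vehicle control, and miR-216b and miR-217 lie between -0.27 and 0.02 in every pair.

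The reads of each pair of libraries were also put to Fisher's exact test (two-sided, adjusted after Benjamini and Hochberg for 234 miRNAs), which speaks of libraries and says nothing of conditions. It takes each miRNA as a share of the listed reads, so its scale differs from that of the size factors. For high BDE47 against the vehicle control all 3 members were under an adjusted p of 0.05, as were 79.1% of the 234 miRNAs. For high BDE47 against low BDE47, where 69.7% were, miR-217 was not (Fisher's exact test, adjusted p = 0.338). That was the only case over the 6 pairs of libraries in which a member was not under 0.05. The share of all 234 miRNAs under 0.05 was 68.8% for low BDE47 and 72.6% for the blank against the vehicle control, and 70.1% for high and 71.4% for low BDE47 against the blank control.

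Ratios between members within 1 library do not depend on the scaling between libraries. The ratio of miR-217 to miR-216b reads was 0.0929 in the blank (0.0880 to 0.0981), 0.0938 in the vehicle control (0.0894 to 0.0985), 0.0874 at low BDE47 (0.0829 to 0.0921) and 0.0903 at high BDE47 (0.0852 to 0.0956). These intervals all overlapped, and the highest ratio was 1.07 times the lowest.

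The ratio of miR-216a to miR-216b was 0.0885 in the blank (0.0837 to 0.0935), 0.127 in the vehicle control (0.122 to 0.132), 0.0750 at low BDE47 (0.0709 to 0.0794) and 0.0665 at high BDE47 (0.0622 to 0.0710). The vehicle control lay above the other libraries and the blank control above both BDE47 libraries, whose intervals overlapped slightly. The highest ratio was 1.91 times the lowest. Against miR-217, miR-216a was the more abundant in the vehicle control alone, at a ratio of 1.35 (1.27 to 1.44). The ratio was 0.952 in the blank control (0.884 to 1.03), 0.859 at low BDE47 (0.797 to 0.925) and 0.736 at high BDE47 (0.677 to 0.801). How reads that match several similar miRNAs were counted is not stated, so a division of reads between miR-216a and miR-216b was not tested.

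**Figure D3:**
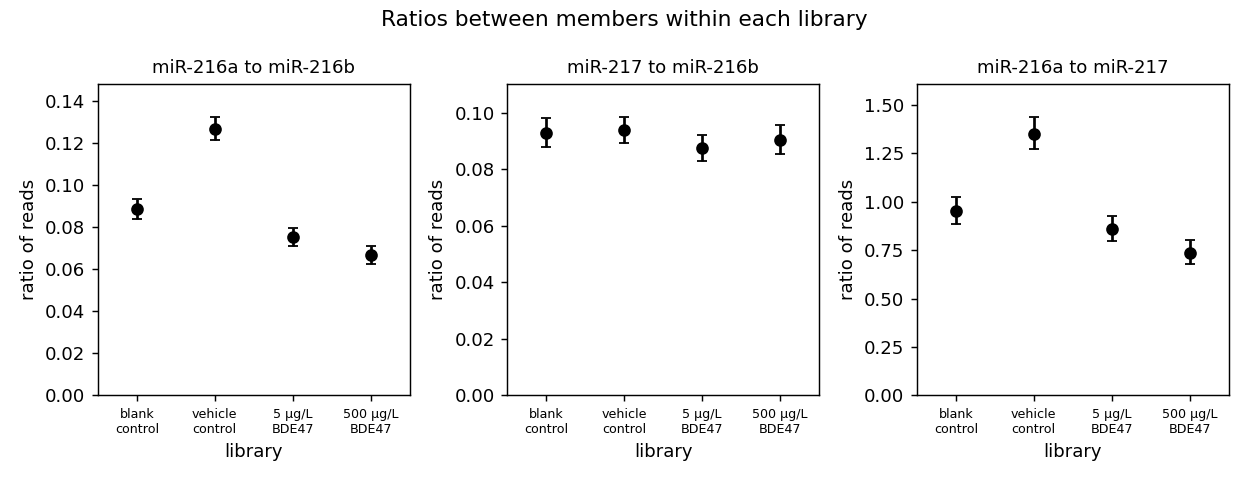
Ratios of reads between members inside each of the 4 libraries, with exact 95% intervals and axes that start at 0. The ratio of miR-217 to miR-216b runs from 0.0874 to 0.0938, while miR-216a is highest in the vehicle control against both other members.

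The gap between miR-216a and miR-216b was set beside other related pairs. For pairs with the same number and different letters, let-7 miRNAs were left out and the more abundant arm of each miRNA was used. Of 99 other such pairs among the miRNAs compared, 9 lay farther apart in log2 ratio for high BDE47 against the vehicle control. There miR-216a and miR-216b were 0.93 apart, and the median of the other pairs was 0.23. For the blank control against the vehicle control the pair was 0.52 apart, and 10 of the 99 were wider. For high BDE47 against low BDE47 it was 0.17 apart, and 30 were wider. Among 83 other pairs whose genes lie within 10000 bases of each other in RefSeq, 12 were wider than miR-216a and miR-216b at high BDE47 against the vehicle control, and 80 were wider than miR-216b and miR-217, which were 0.06 apart. The median over those 83 pairs was 0.36. Pairs can share a miRNA and are not independent.

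miR-216b made up 81.9% to 86.4% of the sum of the 3 members. The sum was 19690 normalized counts in the blank, 21480 in the vehicle control, 19580 at low BDE47 and 17537 at high BDE47. Relative to the vehicle control, its log2 ratio was -0.29 at high BDE47 (95% counting interval -0.32 to -0.26), -0.13 at low BDE47 (-0.16 to -0.11) and -0.13 in the blank control (-0.15 to -0.10). The sum at low BDE47 was at 0.994 of the blank control (0.975 to 1.01), a difference not detectable on this scale (log2 ratio -0.10 with scaling to the total of listed reads), and at high BDE47 it was at 0.891 of the blank control (0.872 to 0.910). Of the gap in the sum between the vehicle control and high BDE47, miR-216a held 31.0% and miR-216b 61.8%. The gap to low BDE47 was led by miR-216a, with 50.9% against 39.7% for miR-216b, and in the gap to the blank control they held 42.3% and 52.0%. miR-216a was 10.4% of the sum in the vehicle control.

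The profiles of the members were then set beside those of all other miRNAs whose mean reached 100 normalized counts. Likeness was the root mean square difference between log2 profiles centred over the 4 libraries. miR-217 was the third closest of 218 miRNAs to miR-216b, and miR-216b the third closest of 218 to miR-217, with a difference of 0.04. miR-216a stood apart from both, with miR-217 in place 57 and miR-216b in place 65 of the miRNAs closest to it. This measure counts the size of a swing as well as its shape. The libraries of miR-217 had the same order as those of miR-216a, over a narrower range. The miRNAs closest to miR-216a were miR-142a-5p, known from blood cells (0.02), miR-153a, known from neurons (0.06), and miR-301c (0.07). miR-142a-5p had 1051 normalized counts in the blank, 1612 in the vehicle control, 922 at low BDE47 and 709 at high BDE47, in the same order of libraries as miR-216a. miR-153a had 12470, 20540, 11334 and 9531. The miRNAs closest to the sum of the members were miR-460-3p (0.03), miR-96 of the sensory hair cells (0.04), miR-458 (0.04), miR-18c (0.05) and miR-7b (0.05), with differences in parentheses. With 4 libraries these are descriptions.

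Some of the other digestive and endocrine miRNAs had the same highest and lowest library as the exocrine ones, and others did not. In the list for the endocrine pancreas and neuroendocrine cells, miR-375 of the pancreatic islets had 3347 normalized counts in the blank, 3872 in the vehicle control, 4045 at low BDE47 and 4018 at high BDE47. It was thus lowest in the blank control, unlike the members of the exocrine group. miR-7a, which islets and neurons express, had 759, 1093, 661 and 626 in the same order of libraries and log2 ratios to the vehicle control of -0.80 at high BDE47, -0.72 at low BDE47 and -0.53 in the blank control. Its paralog miR-7b had log2 ratios of -0.40, -0.21 and -0.12. Both, and miR-459-5p of the list for liver and gut, were highest in the vehicle control and lowest at high BDE47, like all 3 exocrine members. So were 22.6% of the 234 miRNAs. Of the lettered pair miR-7a and miR-7b, miR-7a lay farther below the vehicle control at high BDE47, at low BDE47 and in the blank control. These comparisons share the vehicle control. In lettered pairs outside these lists, the same member often lay lower in all of them, as miR-101b below miR-101a and miR-190a below miR-190b. The share of pairs with such an order was not counted, so it is not read as particular to miR-7 or miR-216. Of the 3 miRNAs of the endocrine list, 0 passed 2-fold at high BDE47, where 7.69% of the 234 were lower and 1.28% higher by that much. Their median log2 ratio to the vehicle control was -0.40, against 0.02 over all 234.

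In the liver and gut list, 5 of 6 miRNAs were lower at high BDE47 than in the vehicle control (6 of 6 with scaling to the total of listed reads) and 1 was more than 2-fold lower, with a median log2 ratio of -0.45. Over all 234 miRNAs on the scale of the size factors, 48.3% were lower and 7.69% more than 2-fold lower, with a median of 0.02. With scaling to the total of listed reads, the median over all 234 was -0.06, so lower values were at least as common as higher ones. The list member more than 2-fold lower was miR-459-5p, a gut miRNA of fish, at a log2 ratio of -1.87. Its other arm, miR-459-3p, had -0.54 and was highest at low BDE47, unlike miR-459-5p. At low BDE47 against the vehicle control, miR-459-5p had -0.86 and miR-459-3p 0.23. The values that follow are again for high BDE47. miR-192 of the intestine, the most abundant of the list with 1682191 normalized counts in the vehicle control, had -0.50, miR-194a had -0.35, and miR-122 of the liver cells had 0.0030. At low BDE47 the median of this list was 0.13, with 1 of 6 lower. After scaling to the total of listed reads it was 0.005, with 2 of 6 lower. All 3 exocrine members were lower on both scales. Of the 234 miRNAs, 48.3% were lower on the scale of the size factors, where their median was 0.02. Their median was -0.10 after scaling to the total of listed reads, so lower values were at least as common there as higher ones. Between high BDE47 and low BDE47, all 6 of the list were lower, with a median of -0.61, against -0.15 for the exocrine members, where 51.3% of the 234 were lower.

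Outside the digestive organs, median log2 ratios to the vehicle control at high BDE47 were 0.08 for 7 muscle miRNAs and -0.09 for 3 of the nervous system. For 4 of skin and epithelium the median was 0.14. With scaling to the total of listed reads these medians were -0.0013, -0.17 and 0.07. All 3 of the nervous system were lower than the vehicle control at high BDE47, where 48.3% of the 234 miRNAs were. For miR-9-3p the log2 ratio was only -0.0026. With size factors from miRNAs with a mean of at least 100, 2 of the 3 were lower. miR-124 was the lowest of these 3, at -0.83. All 3 were also lower at low BDE47 and in the blank control, where 48.3% and 56.0% of the 234 were. The 2 miRNAs of red blood cells lay on opposite sides, with miR-144 at -1.68 and miR-451 at 0.67. miR-124 and miR-144 were also highest in the vehicle control and lowest at high BDE47, as 22.6% of the 234 were. Each list was present in every library, and the part of such tissue differences in the levels of miR-216 and miR-217 was not tested.

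**Figure D4:**
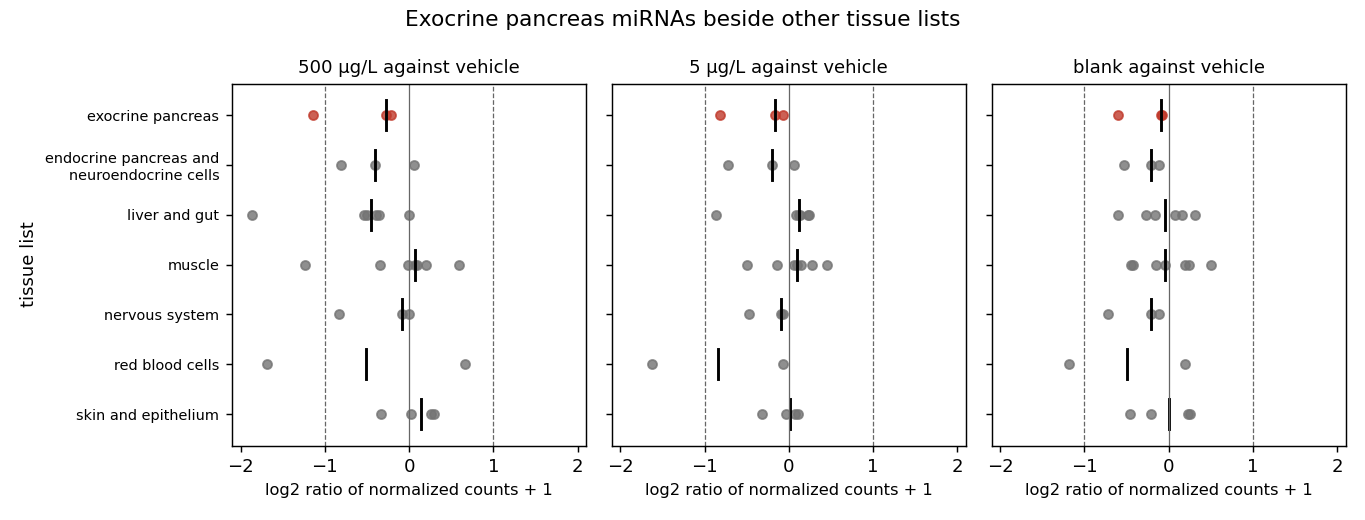
Log2 ratios to the vehicle control of each miRNA in 7 tissue lists (points) with the list median (black bars), at high BDE47, at low BDE47 and in the blank control. The exocrine pancreas miRNAs (red) have medians of -0.27, -0.17 and -0.09, and the dashed lines mark 2-fold.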

How the data were processed

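Small RNA of pooled whole larvae was sequenced in 4 libraries. The authors cleaned the reads of low-quality, short and adaptor sequences and aligned the remainder to the zebrafish entries of miRBase 21. The signal they deposited is a read count over 1 size factor for each library. This was read from the values, 100% of which were whole multiples of 1 number per library within 0.01 read. Its inverse was the median-of-ratios size factor, a scaling under the assumption that most miRNAs stay the same. The aligner for known miRNAs and the treatment of reads that match several miRNAs are not given in the sources used here.

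Columns were matched to libraries by their labels. Ratios used a pseudocount of 1 for the 234 miRNAs whose mean reached 10 normalized counts. The vehicle control was the control, after the study. Named miRNAs were all entries called miR-216 or miR-217, the 5 closest in profile to their sum, and up to 4 abundant members of each digestive list. miR-459-3p, miR-9-3p, miR-124, miR-144 and miR-451 were named outside this rule. Profiles of single members and the pairs of related miRNAs were added after values were seen. The members and lists were chosen with earlier results of these data known. Alternatives were pseudocounts of 0.1 and 10, other filters and scalings, a 1.5-fold threshold and the mean of both controls. The calculations were tested on simulated data. Sequences of the miRNAs, and mRNAs, were not analysed here. The tools were Python 3.11.15 with scipy 1.17.1, pandas 2.3.3, numpy 2.4.6 and matplotlib 3.10.9.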

Additional observations from a re-analysis of the deposited data

How the results depend on the processing

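With each library scaled to its total of listed reads, the log2 ratio of the summed members became -0.37 at high BDE47, -0.25 at low BDE47 and -0.16 in the blank control against the vehicle control, -0.11 between the BDE47 libraries, and -0.21 at high BDE47 and -0.10 at low BDE47 against the blank control. The mean of both controls gave -0.23 at high BDE47 and -0.072 at low BDE47, since the blank control lay below the vehicle control. Of 78 alternative values for single members, 67 stayed within the counting interval and 10 moved with the same sign. 1 changed sign, miR-216b at low BDE47 against the blank control. Every value that moved came from scaling to the total of listed reads or from the mean of both controls. The pseudocounts, and size factors from miRNAs with a mean of at least 100, could hardly move counts of this size. The count of 67 therefore says little of stability. 1 value changed its side of 2-fold, miR-216a at high BDE47 with the mean of both controls. A threshold of 1.5-fold in place of 2-fold gave 49 miRNAs at high BDE47, 36 at low BDE47 and 31 in the blank control against the vehicle control, 21 between the BDE47 libraries, and 26 and 4 at high and low BDE47 against the blank control. Without the filter, 7 miRNAs passed 2-fold in the blank control against the vehicle control, 7 between the BDE47 libraries, and 7 and 3 at high and low BDE47 against the blank control, since very low miRNAs then counted. The main counts were 21, 7, 3, 4, 2 and 0 in the order of comparisons above. Both minimum means, 10 and 100, gave the same 5 miRNAs closest to the summed members. Counting error is small at these reads, and differences between pools of larvae could not be measured with 1 library per condition.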
